A study of Mus musculus with 8 samples.

Results

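Expression of 10 genes for glycolytic enzymes was compared between 5 mouse glioblastomas and 3 samples of normal mouse brain. The genes were listed by name, with earlier results of these data known, and no measured value enters the rule: Hk1 and Hk2 for hexokinase, Pfkl, Pfkm and Pfkp for phosphofructokinase, Aldoa for aldolase, Pgk1 for phosphoglycerate kinase, Pkm for pyruvate kinase, and Ldha and Ldhb for lactate dehydrogenase. All 10 were among the 23523 genes and unnamed features of the deposited table, and all 10 held enough fragments to be tested. The tumours had been started with a lentivirus that expresses HrasG12V together with a short hairpin RNA that targets p53. They were taken when the mice reached a clinical endpoint, after surrounding normal tissue had been dissected off the GFP+ tumour. The normal samples were labelled only as normal mouse brain. The sources used here do not give the age, strain or sex of the mice, the brain region, any vector given to the normal brains, or the cell types that the lentivirus entered. Whether each sample was a separate animal is also not stated, and the p-values then measure only the spread between these samples, which may be technical.

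Glycolysis splits glucose into pyruvate, and lactate dehydrogenase converts pyruvate and lactate into each other. Several of its steps are served by paralogs, related genes whose enzymes catalyse the same reaction with different kinetics and tissue ranges. Hexokinase traps glucose in the cell, phosphofructokinase is a main point of control, and pyruvate kinase catalyses the last step, with products M1 and M2 spliced from the same gene. In adult brain Hk1 and the M1 product are known as the usual forms, while Hk2, M2 and Ldha are known for high expression in dividing and tumour cells.

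Total fragments per library ranged from 5490351 to 15564280, so that 3 fragments in a single library corresponded to between 0.193 and 0.546 CPM, the fragment count scaled to this total. All other CPM values were also scaled with TMM factors. Hras, the oncogene of the vector, had 413 ± 75.1 CPM in glioblastomas and 99.5 ± 4.61 CPM in normal brain (SD, n = 5 and 3), in which fragments of the vector and of the mouse gene cannot be told apart. Trp53, the target of the hairpin, had 4.07 ± 1.51 CPM in glioblastomas and 5.62 ± 1.38 CPM in normal brain (edgeR adjusted p = 0.262). The samples were pieces of tissue, in which fewer cells of a type and less RNA per cell cannot be told apart. The summed level of 8 neuron markers, of which 5 were lower by edgeR, was 925 to 1354 CPM in glioblastomas against 6112 to 7177 CPM in normal brain. That of 7 astrocyte markers (4 lower) was 895 to 2520 against 4622 to 5094 CPM. Most of this brain sum came from Slc1a2, with 193 ± 127 CPM in glioblastomas and 3186 ± 186 CPM in normal brain. The astrocyte markers Aldh1l1, Gja1 and Gfap did not pass, with log2 fold changes of 0.18, 0.49 and 0.75. For 6 markers of myelinating oligodendrocytes (6 lower) the sum was 239 to 840 against 3086 to 5996 CPM. The summed level of 7 macrophage and monocyte markers, all 7 higher, was 944 to 2620 CPM in glioblastomas against 13.7 to 27.9 CPM in normal brain, and that of 5 markers of dividing cells (5 higher) was 439 to 1172 against 6.49 to 10.1 CPM. Of 6 microglia markers 3 were higher and 2 lower, of 5 endothelial markers 4 were higher, and 4 red blood cell genes summed to 10.3 to 66.0 CPM in glioblastomas against 6.13 to 34.0 CPM in normal brain. The red blood cell gene Hba-a2 was at 0 CPM in every sample, and no other marker of these lists was at 0 in all samples of a group. The part of these cell types in the results below was not tested.

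Both products of Pkm could be set side by side because the table lists RefSeq accessions one by one. NM_001253883 carries exon 9 of the gene (GRCm38 chr9:59675029-59675195, plus strand), the coding exon of the M1 product, and NM_011099 carries exon 10 in its place (chr9:59675568-59675734, plus strand), the coding exon of the M2 product. The exons are shown because the fragments that cover them tell the products apart; each is 167 bases long, 103 bases are identical, and capitals mark the 64 that differ.
M1 exon: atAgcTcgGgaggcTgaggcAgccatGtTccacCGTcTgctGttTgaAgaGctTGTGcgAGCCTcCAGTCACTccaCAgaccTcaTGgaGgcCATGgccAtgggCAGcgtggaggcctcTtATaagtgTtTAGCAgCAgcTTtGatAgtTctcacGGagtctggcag
M2 exon: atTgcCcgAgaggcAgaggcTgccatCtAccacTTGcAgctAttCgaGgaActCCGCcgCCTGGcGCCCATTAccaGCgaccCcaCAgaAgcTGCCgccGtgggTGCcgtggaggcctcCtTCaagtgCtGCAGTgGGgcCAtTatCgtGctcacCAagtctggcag
The sequences are those of GENCODE for GRCm38. The authors used mm9, so these positions are not in the coordinates of their alignment.

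By the authors' estimates, M2 was the main form of Pkm in the tumours and M1 in normal brain. The M2 transcript had 428, 489, 677, 381 and 548 FPKM (fragments scaled to transcript length and library depth, as deposited) in glioblastomas 1 to 5, against 22.1, 21.2 and 20.2 FPKM in normal brains 1 to 3. Every tumour was far above every brain. The M1 transcript had 176, 363, 373, 92.9 and 208 FPKM in the glioblastomas, against 335, 341 and 354 FPKM in the brains, and the groups overlapped. M2 thus held 69.1% ± 8.65 of the Pkm FPKM in glioblastomas and 5.81% ± 0.396 in normal brain (SD, n = 5 and 3), with 57.4% to 80.4% in single tumours. The exact two-sided permutation test of that share gave p = 0.0357, the smallest value that 5 against 3 samples allow. The same exact permutation test gave adjusted p = 0.0982 over the 11 accession shares tested, which did not pass. A fully separated share cannot go below that smallest value, so its adjusted p was set by the other accession shares. These include the M1 share, which mirrors the M2 share. The adjusted test therefore cannot decide on M2 by itself, and the M2 shares of the groups did not overlap. Each accession was also tested by itself, a test added after the data were seen. The M2 accession rose by 4.64 ± 0.24 on the log2 scale (SE; edgeR adjusted p = 8.7e-06). The M1 accession had a change of -0.45 ± 0.41 (edgeR adjusted p = 0.383). Of 18583 accessions tested this way, 5647 were called higher and 4728 lower.

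**Figure D1:**
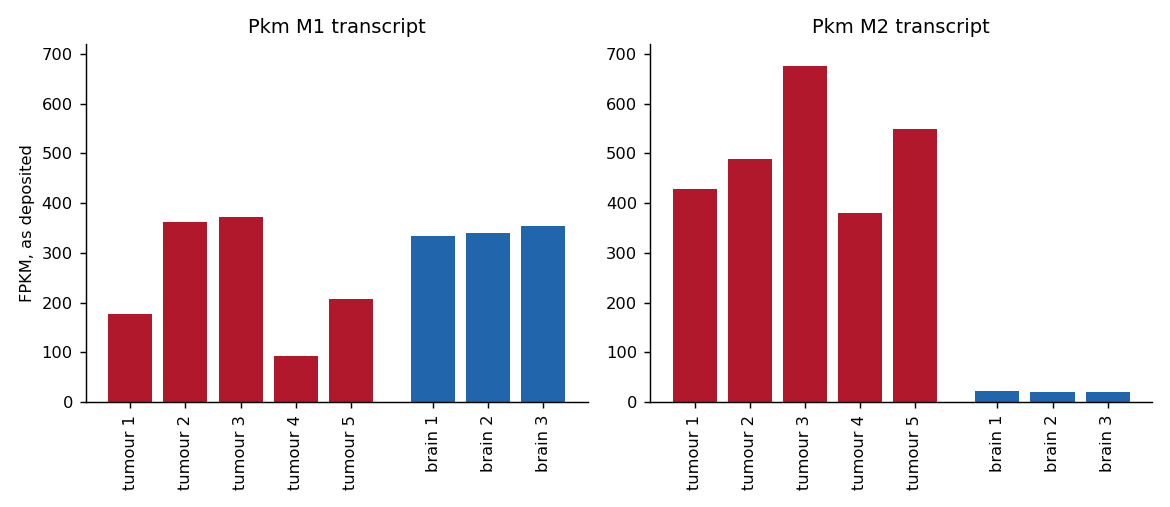
FPKM of the M1 transcript (left) and the M2 transcript (right) of Pkm, as deposited, with 1 bar for each glioblastoma (red) and each normal brain (blue). M2 stood at 381 to 677 FPKM in the tumours and at 20.2 to 22.1 FPKM in the brains, while the M1 bars of the groups overlap.

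The sum of both transcripts rose as well. Pkm had 1431, 1970, 2484, 1144 and 1820 CPM in glioblastomas 1 to 5, against 844, 851 and 878 CPM in normal brains 1 to 3. The log2 fold change was 1.05 ± 0.25 (SE; 5 against 3 samples; edgeR adjusted p = 0.00467). Tumour 4 was the lowest of the tumours and still above every brain.

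Of the 10 genes, 4 were higher in glioblastoma, 5 were lower, and Pfkl did not pass (edgeR quasi-likelihood test, Benjamini-Hochberg adjustment over 14641 genes, threshold 0.05). Of all 14641 genes, 37.1% passed as higher, 33.9% as lower and 71% in either direction, so 4 and 5 of 10 are shares near the background. Glioblastomas and brains were fully separated for 9 of the 10 genes, against 70.6% of the genes tested. The median log2 fold change was -0.41 over the 10 genes and 0.06 over all tested genes. Hk1 and Hk2, and Ldha and Ldhb, moved in opposite directions.

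**Figure D2:**
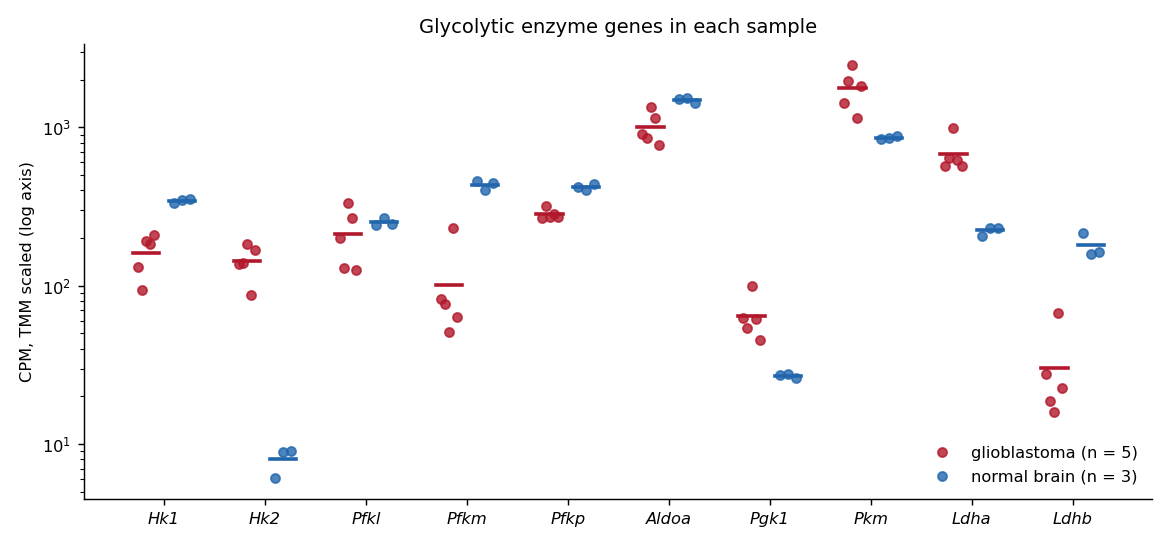
TMM-scaled CPM on a log axis for each of the 10 genes, with 1 point for each sample of glioblastoma (red, left) and normal brain (blue, right) and a bar at the group mean. Hk2, Pgk1, Pkm and Ldha lie higher in every tumour than in any brain, Hk1, Pfkm, Pfkp, Aldoa and Ldhb lie lower, and the Pfkl points overlap.

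**Figure D3:**
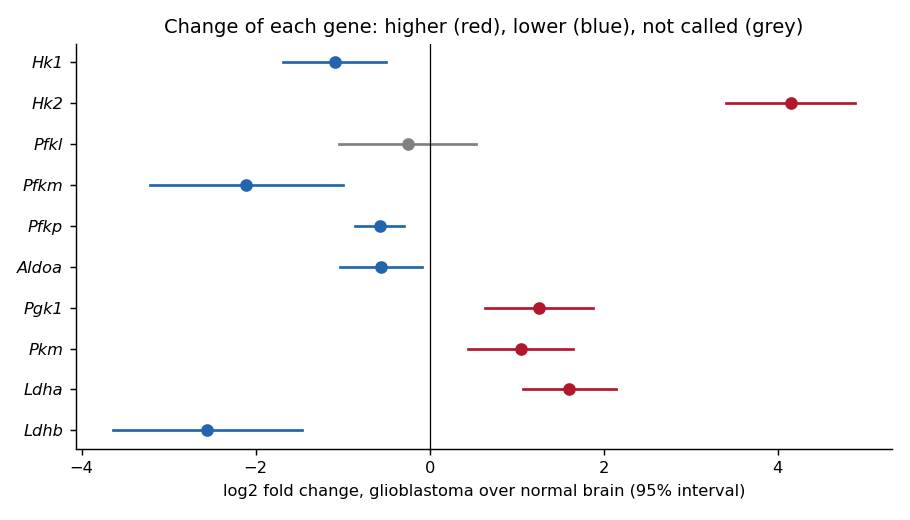
Log2 fold change of glioblastoma over normal brain for each of the 10 genes, with its 95% interval. Hk2 has the largest value, 4.15, Ldhb the lowest, -2.56, and the interval of Pfkl, from -1.04 to 0.53, includes 0.

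Both hexokinase genes were expressed in the tumours, while normal brain expressed mostly Hk1. Hk2 had 138, 139, 182, 87.1 and 169 CPM in glioblastomas 1 to 5, against 6.09, 8.95 and 9.0 CPM in normal brains 1 to 3. Tumour 4 was the lowest tumour and lay far above every brain. The log2 fold change was 4.15 ± 0.30 (SE; edgeR adjusted p = 6.2e-06), and the brain value rested on 164 fragments in all. Hk1, the usual hexokinase of adult brain, had 131, 94.2, 192, 182 and 209 CPM in the glioblastomas, against 332, 349 and 352 CPM in the brains (log2 fold change -1.09 ± 0.24, SE; edgeR adjusted p = 0.00336). The tumours were below the brains without overlap.

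Per length, Hk2 held 40.2% ± 9.46 of the summed FPKM of both hexokinase genes in glioblastomas and 1.70% ± 0.303 in normal brain (SD, n = 5 and 3; exact permutation p = 0.0357, adjusted p = 0.0446 over 5 paralog shares). The share was 26.3% in tumour 4 and 37.5% to 52.1% in the other tumours. In tumour 2 the FPKM of Hk2 was 1.09 times that of Hk1, and in the other tumours it was 0.356 to 0.782 times. The summed FPKM of both genes was 63.7 ± 13.8 in glioblastomas and 83.9 ± 3.20 in normal brain, with no overlap between 48.4 to 78.5 and 80.3 to 86.3.

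The 3 phosphofructokinase genes encode the muscle (Pfkm), liver (Pfkl) and platelet (Pfkp) subunits of a tetramer. Pfkm had 82.7, 76.5, 51.0, 230 and 63.2 CPM in glioblastomas 1 to 5, against 457, 402 and 443 CPM in normal brains 1 to 3. The log2 fold change was -2.11 ± 0.45 (SE; edgeR adjusted p = 0.00283), and tumour 4 stood between the other tumours and the brains. Without tumour 4 the log2 fold change was -2.66. Pfkp was also lower and varied little among the tumours, with 268, 318, 271, 282 and 271 CPM in glioblastomas against 422, 399 and 437 CPM in brains (log2 fold change -0.57 ± 0.12; edgeR adjusted p = 0.00192). Pfkl had 201, 129, 332, 266 and 126 CPM in the glioblastomas and 241, 267 and 246 CPM in the brains, with tumours both above and below the brains. Its log2 fold change of -0.25 had a 95% interval from -1.04 to 0.53 (edgeR adjusted p = 0.499), which holds both no change and a fall to about the size of that of Hk1.

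As shares of the family's FPKM, Pfkm stood at 20.9% ± 9.68 in glioblastomas and 47.6% ± 1.73 in normal brain (SD, n = 5 and 3; exact permutation p = 0.0357, adjusted p = 0.0446). Pfkl stood at 34.1% ± 10.4 in glioblastomas and 20.6% ± 1.84 in normal brain, with the same p-values. Pfkp stood at 45.0% ± 10.5 in glioblastomas and 31.8% ± 0.646 in normal brain, and this share did not pass (exact permutation p = 0.143, adjusted p = 0.143). The brains agreed closely on all 3 shares, while single tumours differed in which subunit led: Pfkl led in tumour 3 with 50.9%, Pfkm in tumour 4 with 36.9%, and Pfkp in tumours 1, 2 and 5 with 44.5%, 56.1% and 54.5%. The summed FPKM of the 3 genes was 162 ± 37.1 in glioblastomas and 329 ± 10.3 in normal brain.

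**Figure D4:**
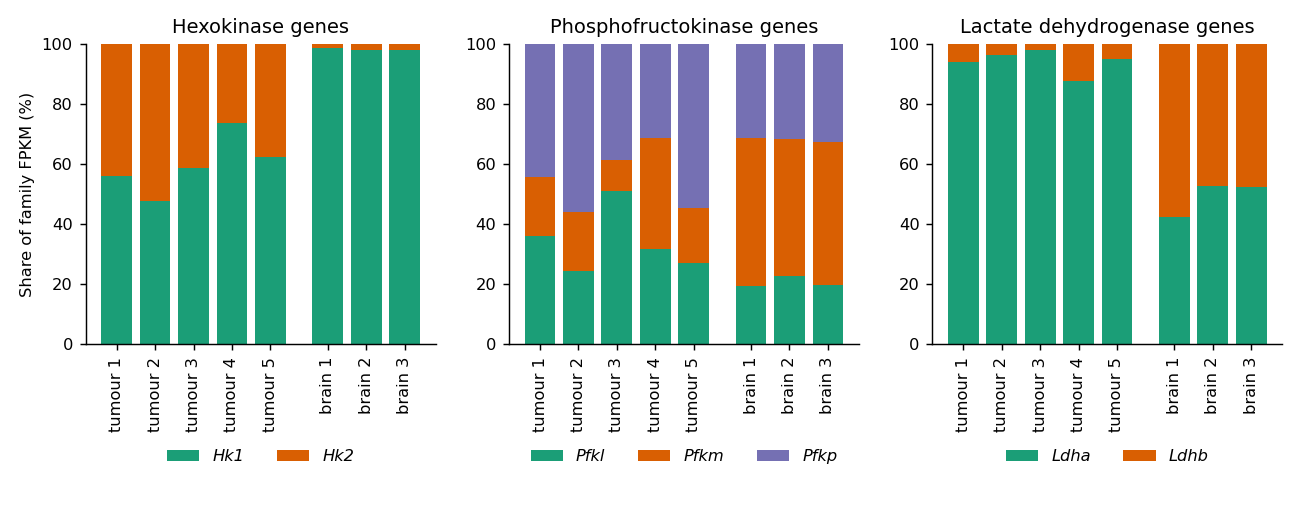
Share of each paralog in the summed FPKM of its family, in percent, with 1 stacked bar for each glioblastoma (left) and each normal brain (right). Hk2 holds 26.3% to 52.1% in tumours and 1.35% to 1.88% in brains, Pfkm holds less in every tumour than in any brain, and Ldha holds 87.7% to 97.9% in tumours and 42.4% to 52.7% in brains.

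Aldoa encodes the aldolase that cleaves fructose 1,6-bisphosphate in most tissues. It had 913, 856, 1340, 1147 and 778 CPM in glioblastomas 1 to 5, against 1509, 1531 and 1418 CPM in normal brains 1 to 3. Every tumour was below every brain, with tumour 3 the closest. The log2 fold change was -0.56 ± 0.19 (SE; edgeR adjusted p = 0.0272), and the call was lost in 8 of 17 alternatives (adjusted p from 0.00699 to 0.0827), among them scaling by library size only and leaving out any 1 of the brains or of tumours 1, 2 and 5. Among the Aldoa accessions, NM_001177308 had 239 ± 68.3 FPKM in glioblastomas and 581 ± 63.4 FPKM in normal brain, while NM_007438 had 480 ± 115 FPKM in glioblastomas and 511 ± 18.5 FPKM in normal brain (SD, n = 5 and 3). The share of NM_001177308 was 32.6% ± 5.59 in glioblastomas and 52.9% ± 3.70 in normal brain, without overlap (exact permutation p = 0.0357, adjusted p = 0.0982 over 11 accession shares). Aldoart1, a retrogene copy of Aldoa, had 22.6 to 37.7 CPM in glioblastomas against 45.6 to 48.2 CPM in normal brain. Aldoart2, another copy, had 4.77 to 8.82 CPM in glioblastomas against 10.3 to 12.4 CPM in normal brain.

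Pgk1 encodes the enzyme of the first step of glycolysis that yields ATP. It had 62.5, 53.9, 99.9, 61.4 and 45.6 CPM in glioblastomas 1 to 5, against 27.2, 27.7 and 26.2 CPM in normal brains 1 to 3. The groups did not overlap, and the log2 fold change was 1.26 ± 0.25 (SE; edgeR adjusted p = 0.00189). Its deposited level was low for this pathway, 38.0 ± 12.3 FPKM in glioblastomas and 16.0 ± 0.447 FPKM in normal brain. The annotation names 3 pseudogenes after Pgk1, 3 after Ldha, 2 after Aldoa and 3 after Gapdh, and the sources used here do not give how fragments that match several places were treated. Gapdh, a glycolytic gene that every cell uses, had 0.180 to 1.26 CPM in glioblastomas and 0.273 to 0.721 CPM in normal brain. Ldha and Aldoa stood at 451 and 730 FPKM in glioblastomas and at 150 and 1096 FPKM in normal brain. Pseudogenes under other names were not counted, and the part of copies in any of these levels was not tested.

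Lactate dehydrogenase is a tetramer of the subunits encoded by Ldha and Ldhb, and the genes moved in opposite directions. Ldha had 572, 642, 995, 620 and 567 CPM in glioblastomas 1 to 5, against 206, 230 and 233 CPM in normal brains 1 to 3 (log2 fold change 1.61 ± 0.22, SE; edgeR adjusted p = 0.0002). Tumour 3 stood above the other tumours, and all tumours were above all brains. Ldhb, whose subunit prevails in heart and is abundant in neurons, had 27.8, 18.6, 16.0, 66.8 and 22.5 CPM in the glioblastomas, against 216, 160 and 163 CPM in the brains (log2 fold change -2.56 ± 0.44; edgeR adjusted p = 0.000835). Tumour 4 was again nearest to the brains, and without it the log2 fold change was -3.07. Ldha held 94.2% ± 3.94 of the family's FPKM in glioblastomas and 49.2% ± 5.89 in normal brain (SD, n = 5 and 3; exact permutation p = 0.0357, adjusted p = 0.0446). The FPKM of Ldha was 7.11 to 47.6 times that of Ldhb in tumours and 0.735 to 1.11 times in brains.

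The order of the levels per length also differed. In glioblastomas Pkm (747 FPKM) and Aldoa (730 FPKM) led with overlapping ranges, followed by Ldha (451 FPKM), which overlapped with Aldoa and lay without overlap above Pfkp (70.1 FPKM). Pfkp, Pfkl, Hk1, Pgk1, Pfkm, Ldhb and Hk2 followed, and neighbours in that order overlapped. In normal brain Aldoa led with 1096 FPKM, followed by Pkm with 364 FPKM, and Pfkm, Ldhb and Ldha at 150 to 157 FPKM overlapped. Below them Pfkp (105 FPKM), Hk1 (82.5 FPKM), Pfkl (67.7 FPKM), Pgk1 and Hk2 (1.43 FPKM) were each separate from the next.

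All 10 genes had a larger SD of log2 CPM among the tumours than among the brains, as 85.1% of all tested genes had. Tumour 3 held the highest tumour value for 6 of the 10 genes, Hk2, Pfkl, Aldoa, Pgk1, Pkm and Ldha, and the lowest for Pfkm and Ldhb. Tumour 4 was the reverse for 4 of them, with the highest Pfkm and Ldhb and the lowest Hk2 and Pkm. In tumour 4 the summed astrocyte and oligodendrocyte markers were the highest of the tumours, at 2520 and 840 CPM. Those of macrophages, endothelium and dividing cells were the lowest, at 944, 125 and 439 CPM, with tumour 1 close for macrophages (1002 CPM). The neuron sum was 925 CPM in tumour 4 and 941 to 958 CPM in tumours 1, 3 and 5. The neuron marker Tubb3 was highest in tumour 4, at 278 CPM. In tumour 3 the markers of macrophages, endothelium and dividing cells were the highest, at 2620, 335 and 1172 CPM. The 7 hypoxia genes summed to 530 CPM there, against 360 to 388 CPM in the other tumours. Vegfa, Adm, Bnip3, Egln3 and Ankrd37 were highest in tumour 3. Car9 was lowest there, at 3.78 CPM against 10.8 to 34.0 CPM in the other tumours, and Ndrg1 was highest in tumour 2. The part of these markers and hypoxia genes in the levels of the 10 genes was not tested. The call of each of the 10 genes was the same without tumour 3 and without tumour 4.

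Accession values of Hk1, Pfkm and Ldha were less settled. NM_010438 of Hk1 held 0.00650% of the FPKM of the gene in tumour 4 and 56.6% in tumour 2. NM_021514 of Pfkm held 0.0269% to 52.7% in the tumours. No accession share of any gene passed (exact permutation test, lowest adjusted p = 0.131 for Hk1, Pfkm and Ldha and 0.0982 for Pkm and Aldoa). The groups overlapped for each share of Hk1, Pfkm and Ldha, and not for those of Pkm and Aldoa. The shares of Pkm and Aldoa were already at the smallest possible exact permutation p. Their adjusted values were thus set by the other shares, and the adjusted test cannot decide on them. In the added test of single accessions, NM_001146100 of Hk1 (log2 fold change -1.40), NM_001163488 of Pfkm (-2.36) and NM_010699 of Ldha (1.72) passed. Of Aldoa, NM_001177308 (-1.22) and NM_001177307 (1.47) passed. The other accessions of these genes did not pass.

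The rest of the pathway was described from lists. Of 19 other glycolytic enzyme genes, 11 were tested, 1 was higher, 3 were lower and 7 did not pass (all tested genes: 37.1% higher and 33.9% lower), with a median log2 fold change of -0.56. The 3 lower genes were Eno2, the neuronal enolase (43.1 ± 16.8 CPM in glioblastomas and 793 ± 21.7 CPM in normal brain; log2 fold change -4.20 ± 0.29), Aldoc, the aldolase of astrocytes and Purkinje cells (85.0 ± 33.3 CPM in glioblastomas and 1111 ± 68.7 CPM in normal brain; -3.71 ± 0.29), and Pgam2, the muscle phosphoglycerate mutase (0.255 ± 0.310 CPM in glioblastomas and 4.55 ± 1.28 CPM in normal brain; -4.14 ± 0.66). Hk3, a hexokinase of myeloid cells, was the higher gene, with 21.4 ± 8.56 CPM in glioblastomas and 1.42 ± 1.12 CPM in normal brain. Its log2 fold change was 3.93 ± 0.56 (SE; edgeR adjusted p = 0.000268). The isomerase genes Tpi1 (0.18 ± 0.22) and Gpi1 (-0.48 ± 0.27) did not pass, nor did Pgam1, Bpgm, Eno3, Hkdc1 or Ldhd, with log2 fold changes of 0.33, -0.56, 0.93, -1.57 and -0.68. Without tumour 4, 7 genes of the list were lower, among them Gpi1, Bpgm, Hkdc1 and Ldhd, with log2 fold changes of -0.70, -1.0, -2.73 and -1.44. The genes left out by the filter on low counts included Gapdh and Eno1. Eno1 held 13 fragments in the glioblastomas and 13 in the brains. Its near-identical copy Eno1b, named after its values were seen, had 130 to 205 CPM in glioblastomas against 90.3 to 98.7 CPM in normal brain, and how fragments were divided between these genes was not tested.

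Transport of lactate and glucose changed member by member. Of 9 tested transport genes, 4 were higher and 3 lower, shares near the 37.1% and 33.9% of all tested genes. Slc16a3, the lactate exporter MCT4, had 128 ± 74.3 CPM in glioblastomas and 3.45 ± 1.14 CPM in normal brain (log2 fold change 5.20 ± 0.56; edgeR adjusted p = 5.1e-05), and Slc16a1, the transporter MCT1, had 528 ± 135 CPM in glioblastomas and 81.6 ± 10.3 CPM in normal brain (2.69 ± 0.26). Slc16a7, the neuronal transporter MCT2, fell to 3.40 ± 1.76 CPM in glioblastomas, against 29.7 ± 1.73 CPM in normal brain (-3.09 ± 0.36). Slc2a1, the glucose transporter GLUT1, named after its values were seen, had 229 ± 30.5 CPM in glioblastomas and 64.6 ± 3.67 CPM in normal brain (1.83 ± 0.16).

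The 14 genes that act on the entry of pyruvate into mitochondrial metabolism included the kinases Pdk1 to Pdk4, which inhibit it. Of the 14, 10 were lower and 4 did not pass. Pdk2, Pdk3 and Pdk4 were among the lower, Pdk4 narrowly (edgeR adjusted p = 0.0489). All 14 had a log2 fold change below 0, and the median was -0.69. Of all tested genes 33.9% were lower and 71% were called in either direction. Pdk2, a kinase that inhibits pyruvate dehydrogenase, had 3.39 ± 1.71 CPM in glioblastomas and 37.3 ± 1.86 CPM in normal brain (-3.41 ± 0.36). Pcx, pyruvate carboxylase, had 12.2 ± 2.40 CPM in glioblastomas and 76.5 ± 10.5 CPM in normal brain (-2.65 ± 0.19). The list of 13 genes for the glycogen and pentose phosphate branches also held Phgdh, an enzyme gene of serine synthesis. Of the 13, 9 were higher, Phgdh (0.91 ± 0.27) among them, and 2 lower, against 37.1% and 33.9% of all tested genes. Pgm2, a phosphopentomutase, had 100.3 ± 10.2 CPM in glioblastomas and 8.80 ± 1.22 CPM in normal brain (3.51 ± 0.17), Pygl, liver glycogen phosphorylase, had 48.8 ± 18.7 CPM in glioblastomas and 6.28 ± 0.982 CPM in normal brain (2.96 ± 0.37), and Pygm, the muscle form, had 1.74 ± 1.05 CPM in glioblastomas and 28.3 ± 9.67 CPM in normal brain (-4.05 ± 0.43). Of 5 tested genes that set fructose 2,6-bisphosphate, the activator of phosphofructokinase, Pfkfb1 was higher (2.63 ± 0.70) and Pfkfb2 (-1.22 ± 0.26) and Tigar (-0.999 ± 0.16) were lower. Again 37.1% of all tested genes were higher and 33.9% lower. Pfkfb3 (1.21 ± 0.58) and Pfkfb4 (0.82 ± 0.41) did not pass, and the median of the list was 0.82. Pfkfb1 rested on 14 fragments in the brains and was not tested under the filter of 5 CPM.

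Of 9 regulators, 6 were higher and 2 lower (all tested genes: 37.1% and 33.9%), and without any 1 of the 3 brains 3 were higher. Ptbp1, a splicing factor known to repress exon 9 of Pkm, had 192 ± 48.5 CPM in glioblastomas and 17.4 ± 2.72 CPM in normal brain (3.46 ± 0.27; edgeR adjusted p = 8.6e-06). Its neuronal paralog Ptbp2, named after its values were seen, had 122 ± 25.1 CPM in glioblastomas and 188 ± 16.0 CPM in normal brain (-0.62 ± 0.18; adjusted p = 0.0130 with edgeR, 0.0517 without brain 2). Myc, a transcription factor that acts on many glycolytic genes, had 17.2 ± 5.26 CPM in glioblastomas and 1.27 ± 0.791 CPM in normal brain (3.73 ± 0.45). The hypoxia factor gene Hif1a, chosen with its values known, had a log2 fold change of 2.14 ± 0.32, and Epas1, which encodes a related factor, one of -0.63 ± 0.16. Of 7 hypoxia genes outside glycolysis, 4 were higher, against 37.1% of all tested genes, and 3 did not pass, with Car9 at 4.92 ± 0.87 and Adm at 4.27 ± 0.44.

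**Figure D5:**
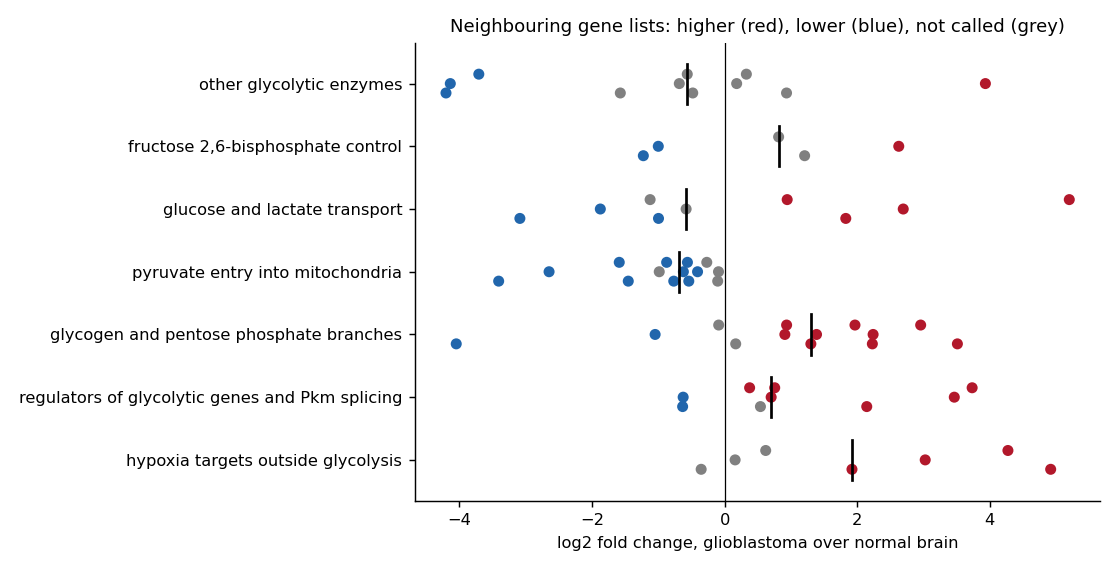
Log2 fold change of glioblastoma over normal brain for the tested genes of the 7 lists (1 point a gene; red higher, blue lower, grey not called), with a black bar at the median of each list. The medians are -0.56 for other glycolytic enzymes, -0.69 for pyruvate entry and 1.30 for the glycogen and pentose phosphate branches, a list that includes Phgdh.

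Hypoxia-inducible factors are known to bind DNA at sites with the core ACGTG or GCGTG. The promoters of the 10 genes were searched for ACGTG only. In the 250 bases before each start site (RefSeq, GRCm38.p6), ACGTG on either strand was found for 6 of the 10 genes, in 8 of their 18 windows. Among all genes it was in 16.6% of 32851 windows and in any window of 18.5% of 27025 genes. The 10 genes thus had more windows per gene, which raises the chance of a match in any window. Overlapping windows of Aldoa hold the same site and were counted separately. Enrichment was not tested. CACGTG reads the same on both strands and was counted as 1 site. The 6 genes were Hk2, Pgk1, Pkm and Ldha, which were higher in the tumours, and Aldoa and Pfkm, which were lower. The windows of 3 higher genes with more than 1 site are printed with the sites in capitals: Hk2 (chr6:82774455-82774704, minus strand), Pgk1 (chrX:106186850-106187099, plus strand) and Ldha (chr7:46845554-46845803, plus strand).
Hk2: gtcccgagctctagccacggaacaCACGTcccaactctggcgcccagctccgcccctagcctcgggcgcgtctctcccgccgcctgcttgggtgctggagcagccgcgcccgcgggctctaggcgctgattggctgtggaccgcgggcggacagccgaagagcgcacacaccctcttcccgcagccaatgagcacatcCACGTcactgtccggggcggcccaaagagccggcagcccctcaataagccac
Pgk1: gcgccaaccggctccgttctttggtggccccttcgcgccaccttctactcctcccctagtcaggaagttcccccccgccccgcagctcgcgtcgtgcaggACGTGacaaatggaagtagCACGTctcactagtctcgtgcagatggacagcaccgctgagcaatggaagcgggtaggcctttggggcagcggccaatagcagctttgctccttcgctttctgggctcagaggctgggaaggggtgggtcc
Ldha: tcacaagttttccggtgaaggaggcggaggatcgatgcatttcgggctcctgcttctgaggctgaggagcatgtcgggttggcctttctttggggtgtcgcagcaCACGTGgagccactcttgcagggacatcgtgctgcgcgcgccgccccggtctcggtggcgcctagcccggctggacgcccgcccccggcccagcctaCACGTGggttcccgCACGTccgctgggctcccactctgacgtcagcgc
Hk2 and Pgk1 each held 2 sites and Ldha 3, of which 2 were CACGTG, and 0.26% of all windows held 3 or more. No ACGTG was found for Hk1, Pfkl, Pfkp and Ldhb. GCGTG was not searched for or counted, and it does occur in windows of each of these genes. A match describes these letters only, and binding was not measured.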

How the data were processed

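RNA from 5 mouse glioblastomas and 3 normal mouse brains was sequenced from TruSeq libraries, per the labels' protocols. STAR 2.3.0e and Cuffdiff 2.1.1 on mm9 are named in the submitters' processing notes. The sources used here do not give their settings or annotation. For each library the authors deposited estimated counts of fragments and FPKM values for 30967 RefSeq accessions, per the file headers, with fragments shared by accessions split between them. Accessions were named from RefSeq (30474) and GENCODE (178), and 315 without a symbol, with 0.507% of fragments, kept their identifier. Estimated counts were summed per gene and rounded. The sums of the 10 genes were whole in all 8 libraries (within 0.01 plus the 6 digits of the file), so no split of fragments with another gene was seen. This margin grows with the sum, and fragments dropped or given whole to a copy would not show.

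Genes were tested with edgeR 4.0.16 (TMM factors, default filter on low counts, robust quasi-likelihood F test, Benjamini-Hochberg adjustment over 14641 genes). CPM are TMM scaled, standard errors come from the F statistic, and 95% intervals use 6 degrees of freedom. Shares used FPKM, and were tested with exact two-sided permutation tests over samples (scipy 1.17.1), for which intervals are not given. Alternatives were DESeq2 1.42.0, upper quartile or RLE factors, no factors beyond library size, other filters, limma 3.58.1 on log2(FPKM + 1) and log2(FPKM + 0.1), and each library left out. Tests were tested on simulated data. Floors cover counting error only. Every pair of libraries in a group differed by more than sampling noise (lowest chi-square over its degrees of freedom 5.17). The members and lists were chosen with earlier results of these data known. All 10 genes are named; each list gave the 2 called genes that moved most in its commoner direction, 1 of the opposite direction, and every tested other glycolytic enzyme.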

Additional observations from a re-analysis of the deposited data

Results flagged for a closer look

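Ldha in tumour 3 stood apart from the other glioblastomas, with 995 CPM against 567 to 642 CPM in the other 4. The gap to the nearest tumour was 0.778 of the range of log2 CPM, above the critical value of 0.710 of Dixon's test for 5 samples. Among 26 sets of tumour values examined this way it was the only one past that value, and chance flags about 1 in 20 such sets. Without tumour 3 the log2 fold change of Ldha was 1.43, and its call was the same.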

How the results depend on the processing

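Of the 10 genes, 9 kept their direction and their side of the threshold under all 17 alternatives. Log2 fold changes ranged from 3.40 to 4.29 for Hk2, 1.43 to 1.74 for Ldha, 1.05 to 1.39 for Pgk1, 0.90 to 1.18 for Pkm, -1.19 to -0.94 for Hk1, -0.61 to -0.43 for Pfkp, -2.66 to -1.93 for Pfkm, -3.07 to -2.38 for Ldhb and -0.47 to -0.11 for Pfkl, which passed in none. Aldoa lost its call in 8, at -0.44 with upper quartile factors and -0.42 with library size only. These scalings moved the median of all genes by 0.12 and 0.14. With shares of fragments in place of FPKM, the differences in share were 45.1 points for Hk2, 11.9 for Pfkl, -23.1 for Pfkm and 39.9 for Ldha. None of these passed (exact permutation test, adjusted p = 0.0595, and 0.0893 for Pfkl). Hk2, Pfkm and Ldha still had the smallest possible exact permutation p, 0.0357. Pfkl no longer reached it, and the adjustment over the 5 shares then gave higher values. Of other glycolytic enzymes, 5 were lower with DESeq2 and with no filter, and 8 without brain 1 and tumour 4, an alternative chosen after seeing the data. With 1 library left out, 3 to 7 genes of that list were lower (7 without tumour 4), 1 to 2 genes of fructose 2,6-bisphosphate control were higher (2 without tumour 2), and 3 to 7 regulators were higher and 1 to 2 lower (1 without brain 2). DESeq2 called 2 genes of fructose 2,6-bisphosphate control higher and the filter of 5 CPM 0. Of the pyruvate entry genes, 7 were lower with library size only, 8 without brain 3 and 11 with limma on log2(FPKM + 1). Leaving out a library cannot give an exact p of 0.05 for shares, so only values were compared: the M2 share stayed 60.5 to 66.2 points higher. Hk2 rested on as few as 36 fragments in a brain. No paired analysis was possible because the labels give no replicate numbers.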
